A study of Mus musculus with 12 samples.

Results

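The genes described here are 33 genes of cholesterol and fatty acid synthesis, of the sterol sensing that controls it, and of sterol transport. They were taken by symbol from a fixed list, out of 55421 Ensembl genes in the deposited count table. All 33 were found once each, and all 33 passed the filter on low counts that left 18108 genes for testing. By role they comprise 8 enzymes of the early mevalonate pathway, 11 enzymes of the sterol branch, 5 regulators, 1 sterol transport protein, 6 enzymes of fatty acid synthesis and desaturation, and 2 targets of the liver X receptors (LXRs).

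The samples were cultures of MOC2, a mouse oral squamous cell carcinoma line, in 4 groups of 3 libraries. The line designated MOC2-25 was labelled EV-proficient and the line designated MOC2-27 EV-deficient. Extracellular vesicles (EVs) are small packets of membrane, protein and RNA shed by cells, and in MOC2-27 their release was blocked genetically, with neither the gene nor the construct named in the labels. Each line was sampled as a control with DMSO and after 600 nM paclitaxel, a microtubule-stabilising drug, for 48 h to induce senescence. All groups shared a medium with 10% fetal bovine serum, hydrocortisone, cholera toxin, transferrin, insulin, tri-iodothyronine and EGF, and serum is a source of lipoprotein sterol. Each EV label was carried by 1 line, so the label cannot be told apart from whatever else sets these lines apart. The labels do not say whether the 3 libraries of a group came from separate experiments, so p-values measure the spread between these libraries, which may be technical.

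Library totals ran from 23263472 to 62955757 counts. A floor of 3 counts in a library corresponded to 0.0492 to 0.121 CPM (counts scaled to library size), the unit of the levels below; such intervals and floors cover counting error only. Of 9 squamous epithelial markers, 7 had group means above 1 CPM in every group, with summed levels of 5069 to 5499 CPM (EV-proficient DMSO), 3513 to 3841 (EV-proficient paclitaxel), 5675 to 6184 (EV-deficient DMSO) and 3079 to 3196 CPM (EV-deficient paclitaxel). The exceptions were Krt5 and Trp63, basal squamous markers, which did not exceed 0.171 and 0.180 CPM in any library. Fibroblast markers summed to 1.65 to 2.55 and 2.61 to 3.42 CPM in the EV-proficient and EV-deficient DMSO libraries and to 5.46 to 6.68 and 6.68 to 8.38 CPM with paclitaxel. Adipocyte markers likewise summed to 0.431 to 0.468 and 0.188 to 0.548 CPM and to 1.39 to 1.68 and 1.67 to 3.24 CPM, so both sums were low and higher with the drug. Leukocyte markers summed to at most 1.54 CPM in any library. The share of counts on mitochondrial genes moved with the drug, from 0.550% to 0.720% and 0.581% to 0.729% in the DMSO libraries of the EV-proficient and EV-deficient labels to 0.846% to 0.907% and 1.07% to 1.45% under paclitaxel. The epithelial, fibroblast and adipocyte marker sums and the mitochondrial share all moved with paclitaxel, and the part of any of them in the results was not tested. The epithelial list did not move as a unit: Epcam went from a mean of 407 to 816 CPM in the EV-proficient and from 439 to 535 CPM in the EV-deficient label. On the second principal component of all genes (16.4% of the variance) the EV-proficient DMSO and EV-deficient paclitaxel libraries lay on one side and the other 6 libraries on the opposite side. A row that the authors added for a dngfr sequence split the same way, at 5.72 to 12.2 CPM in EV-proficient DMSO and 9.62 to 12.4 CPM in EV-deficient paclitaxel libraries against 2.47 to 3.76 CPM in EV-proficient paclitaxel and 1.89 to 2.54 CPM in EV-deficient DMSO libraries. Every difference between EV labels, every paclitaxel effect within a label and every interaction therefore refers to the libraries as labelled, and whether the EV labels of 2 groups were exchanged was not tested.

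Cells build cholesterol from acetyl-CoA by way of mevalonate, farnesyl diphosphate, squalene and lanosterol, and build fatty acids from the same acetyl-CoA by way of malonyl-CoA. Most of these enzymes are transcribed under sterol regulatory element-binding proteins (SREBPs), membrane-bound transcription factors encoded by Srebf1 and Srebf2. When membrane sterol is scarce, the escort protein SCAP carries SREBPs from the endoplasmic reticulum to the Golgi, where proteases release their active part, and when sterol is plentiful, INSIG proteins hold SCAP back. LXRs respond to oxysterols and drive sterol export and reduced sterol uptake.

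Together the 33 genes took 0.808% to 0.837% of all counts in EV-proficient DMSO and 0.779% to 0.784% in EV-deficient DMSO libraries. Under paclitaxel they took 0.587% to 0.630% and 0.663% to 0.735%, and the ranges with and without drug did not overlap under either label. This share of unscaled counts is weighted toward the most abundant members, Fasn, Scd2 and Acly. Per kilobase of exon, the highest level in all 4 groups was that of Scd2, a stearoyl-CoA desaturase, with group means of 389, 249.8, 340.3 and 313 CPM per kilobase in the EV-proficient DMSO, EV-proficient paclitaxel, EV-deficient DMSO and EV-deficient paclitaxel groups. Acly, which makes cytosolic acetyl-CoA from citrate, came second in every group, at 189, 127, 195 and 119 CPM per kilobase. Fasn, the fatty acid synthase, held the third place in both DMSO groups, at 177 and 189, and stood at 56.1 and 61.8 CPM per kilobase under paclitaxel. The lowest was Abca1, the cholesterol exporter, at 0.00994, 0.0643, 0.010 and 0.160 CPM per kilobase in the same group order. The heat map of all members shows that most rows turn from above to below their mean with paclitaxel, and that a few, led by Cyp51, follow the combination of label and drug instead.

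**Figure D1:**
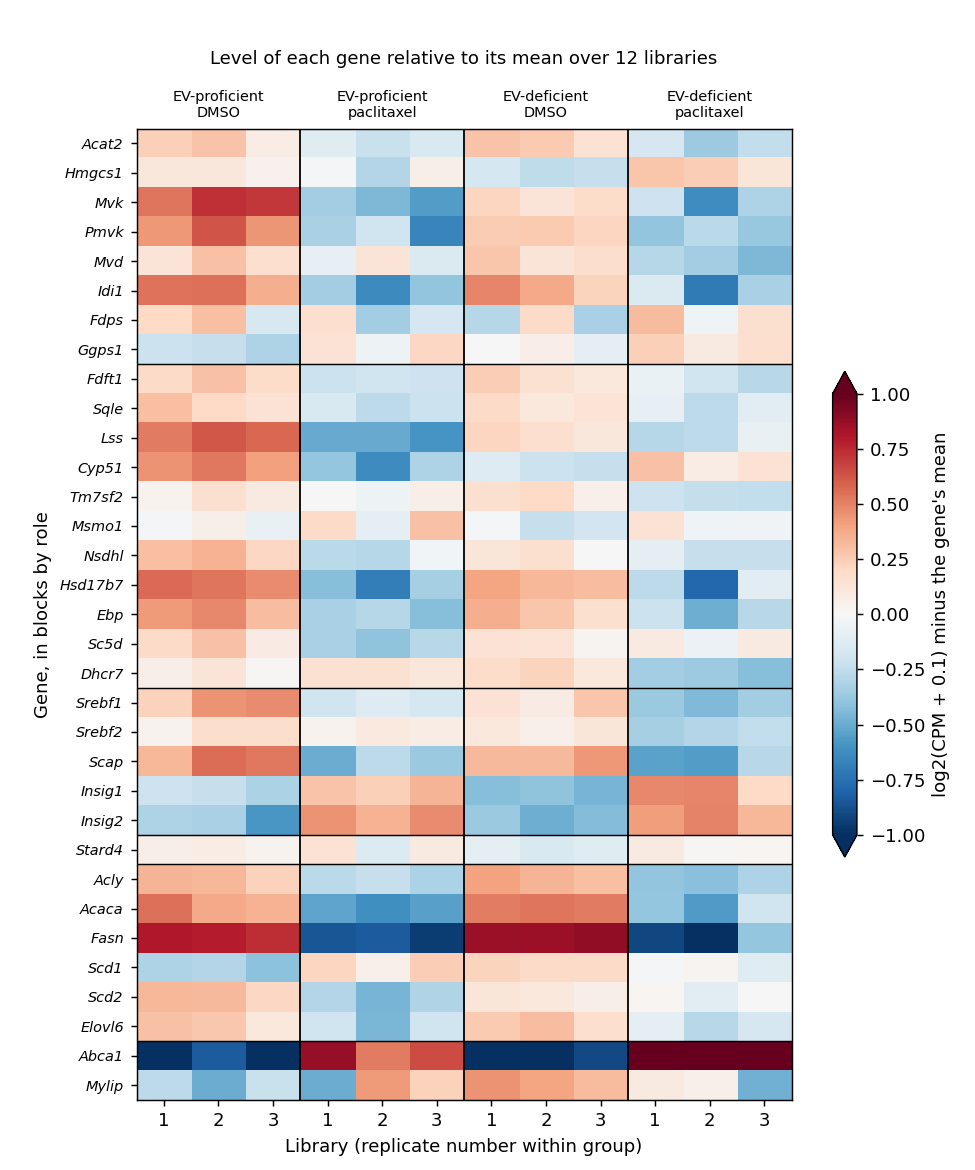
Each row is 1 gene and each column 1 of the 12 libraries; colour is log2(CPM + 0.1) minus the gene's mean over the libraries, limited to 1 in either direction, with black lines between groups and roles. Fasn, Acaca, Scap and Hsd17b7 are above their mean in all 6 DMSO and below it in all 6 paclitaxel libraries, and Insig1, Insig2 and Abca1 the reverse.

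Paclitaxel was compared with DMSO within each label, which asks how the treatment meant to induce senescence changed the pathway in each line. Under the EV-proficient label 5 of the 33 genes rose and 20 fell (adjusted p under 0.05, edgeR quasi-likelihood test over all genes). Of all 18108 genes tested, 58.2% passed in this comparison, 31.1% higher and 27.1% lower. The median log2 fold change of the members was -0.43, against 0.052 over all genes. Under the EV-deficient label 6 rose and 21 fell, where 62.9% of all genes passed, 32.4% higher and 30.5% lower, with a median of -0.37 against 0.075. With upper-quartile scaling, which shifted the median of all genes by 0.18 in the EV-deficient comparison, the split there was 9 higher and 17 lower; the share of higher genes among all called genes moved too (63.4% against 51.5%). Called values that this moved by over 1.5 times included Cyp51 (0.55), Stard4 (0.35), Mvk (-0.36), Lss (-0.19), Fdft1 (-0.17), Acat2 (-0.30), Elovl6 (-0.24) and Srebf2 (-0.20). The libraries of a comparison did not overlap for 24 members under the EV-proficient and 30 under the EV-deficient label, where this held for 62.3% and 68.7% of all genes. Across both labels, which share no library, 17 members fell in both, 3 rose in both, 8 passed under 1 label only and 3 under neither (Fdps, Msmo1 and Mylip). Cyp51 and Scd1 passed in opposite directions. Of the 22 members called in both labels, 20 (90.9%) had the same sign, as had 6783 (84.1%) of the 8066 genes called in both. Called or not, the sign of the paclitaxel effect was the same in both labels for 26 of the 33 members (78.8%) and for 71.6% of all genes. In bulk RNA, fewer cells expressing a gene and less RNA per cell cannot be told apart.

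**Figure D2:**
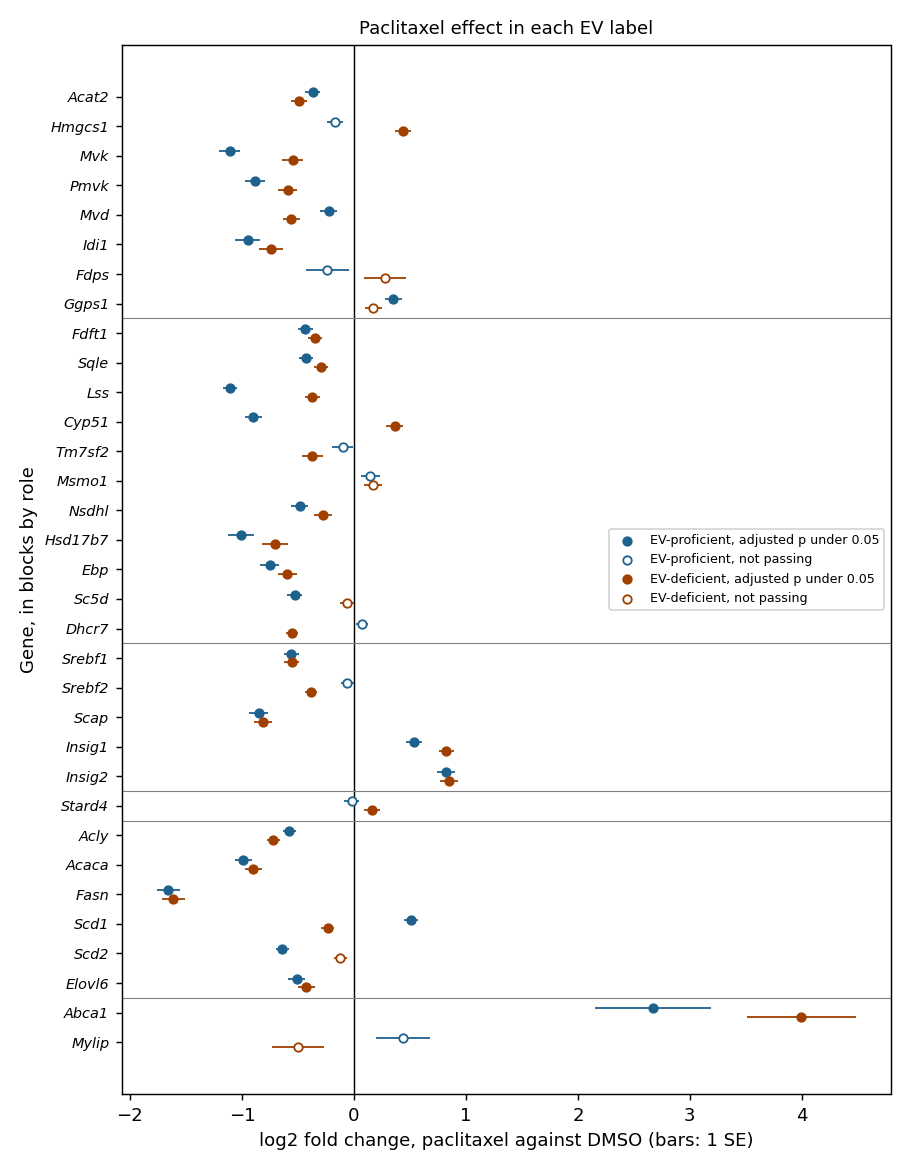
Points are log2 fold changes of paclitaxel against DMSO in the EV-proficient (blue) and EV-deficient (brown) label, with bars of 1 SE; filled points have an edgeR adjusted p under 0.05. Fasn lies farthest left in both labels, at -1.66 and -1.61, and Cyp51 and Scd1 have filled points on opposite sides of 0.

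Fatty acid synthesis held the largest fall. Fasn was at 1972, 1949 and 1888 CPM in the EV-proficient DMSO libraries and at 625, 633 and 585 CPM in the EV-proficient paclitaxel libraries. The EV-deficient libraries held 2058, 2047 and 2094 CPM under DMSO and 600.1, 566 and 863 CPM under paclitaxel. All 6 paclitaxel libraries lay far below all 6 DMSO libraries, and EV-deficient paclitaxel replicate 3 was the highest of the treated ones. The log2 fold change of Fasn (ENSMUSG00000025153, chr11:120805846-120824547 of GRCm38, minus strand) was -1.66 ± 0.10 SE, edgeR adjusted p 1.6e-11, in the EV-proficient and -1.61 ± 0.10 SE, edgeR adjusted p 1.4e-11, in the EV-deficient label. Acaca was at 399.6, 355 and 348 CPM in the EV-proficient DMSO libraries and at 189.7, 179 and 187 CPM in the EV-proficient paclitaxel libraries. With the EV-deficient label the values were 389.9, 396 and 392 CPM under DMSO and 209, 185 and 238 CPM under paclitaxel. This gene encodes acetyl-CoA carboxylase, which makes the malonyl-CoA that Fasn uses, and its treated libraries were again all below its untreated ones. It fell by 0.99 and 0.90 on the log2 scale. Acly changed by -0.57 ± 0.056 SE and -0.72 ± 0.056 SE, and Elovl6, which elongates palmitate, by -0.51 ± 0.076 SE and -0.42 ± 0.075 SE, so that these 4 enzymes fell in both labels. None of the 4 passed a test between the labels or of the interaction, although Acaca under paclitaxel (0.18 ± 0.075 SE, edgeR adjusted p 0.058) was called as higher in the EV-deficient label with median-of-ratios scaling (0.21), DESeq2 (0.21), 1 CPM in 3 libraries (0.23) and upper-quartile scaling (0.28), and without EV-deficient paclitaxel replicate 2 (0.28). Fasn was called there in that last fit (0.26), and Elovl6 with upper-quartile scaling (0.20).

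Both stearoyl-CoA desaturases, which put the double bond into stearate and palmitate, departed from this. Scd1 was at 278, 281 and 259 CPM in the EV-proficient DMSO libraries and at 399.8, 357 and 408 CPM in the EV-proficient paclitaxel libraries. Untreated EV-deficient libraries were at 402, 393 and 393 CPM and treated ones at 341, 351 and 317 CPM. The EV-proficient DMSO libraries were the lowest of the 4 groups, with no overlap with any other group. Scd1 (ENSMUSG00000037071, chr19:44394455-44407879 of GRCm38, minus strand) rose with paclitaxel in the EV-proficient label (0.51 ± 0.062 SE, edgeR adjusted p 3.8e-07) and fell in the EV-deficient label (-0.24 ± 0.062 SE, edgeR adjusted p 0.0023); the fall was not called with upper-quartile scaling (-0.051). Scd2 was at 2190.3, 2178 and 2010.3 CPM in the EV-proficient DMSO libraries and at 1419, 1265 and 1412 CPM in the EV-proficient paclitaxel libraries. In the EV-deficient libraries it was at 1889.6, 1869.8 and 1819 CPM under DMSO and at 1766, 1619.6 and 1749 CPM under paclitaxel. Scd2 (ENSMUSG00000025203, chr19:44293674-44306864 of GRCm38, plus strand) fell in the EV-proficient label (-0.64 ± 0.060 SE, edgeR adjusted p 8.2e-09), and in the EV-deficient label its change of -0.12 ± 0.060 SE missed the threshold (edgeR adjusted p 0.088), although it was called as lower with no low-count filter (-0.16) and without EV-proficient paclitaxel replicate 2 (-0.13). Of the summed level of both desaturases per kilobase of exon, Scd1 made up 12.4%, 12.6% and 12.6% in the EV-proficient DMSO libraries and 23.9%, 24.0% and 24.4% with paclitaxel. In the EV-deficient libraries its share was 19.2%, 19.0% and 19.4% under DMSO and 17.8%, 19.5% and 16.8% under paclitaxel. The share thus was higher with the drug in one label and overlapped between treatments in the other. Scd1 and Scd2 are close relatives that lie near each other on chromosome 19, and how reads common to both were counted is not given in the sources used here.

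**Figure D3:**
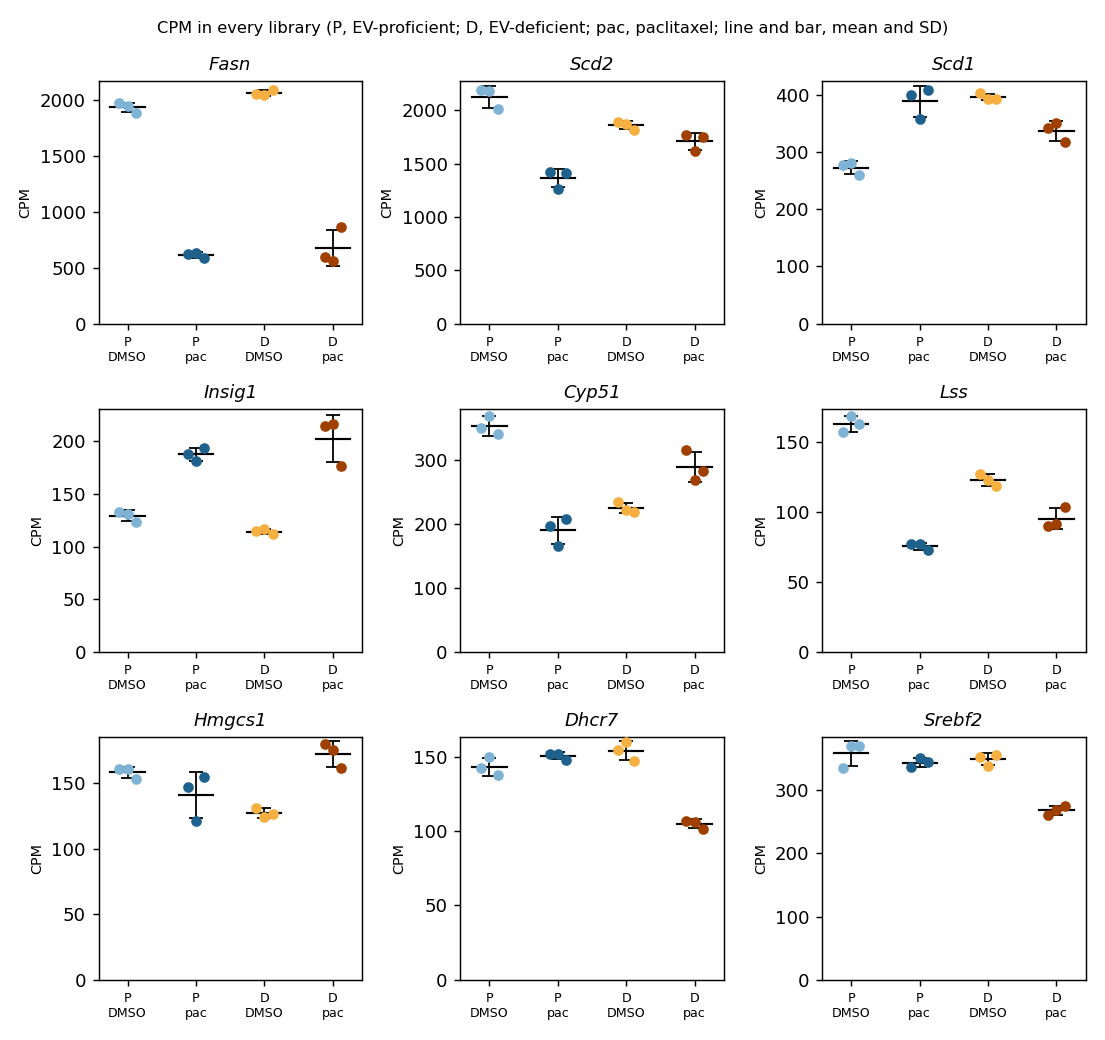
Dots are the CPM of each library in the 4 groups, lines and bars the mean and SD of 3 libraries, and every axis starts at 0. Fasn drops with paclitaxel in both labels, Insig1 rises in both, and Cyp51, Lss and Hmgcs1 have their EV-deficient libraries below the EV-proficient ones under DMSO and above them under paclitaxel.

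Of the 8 early mevalonate enzymes, 5 fell and 1 rose in the EV-proficient label (median log2 fold change -0.30), where 27.1% and 31.1% of all genes did. In the EV-deficient label 5 of these enzymes fell and 1 rose (median -0.52), where 30.5% and 32.4% of all genes did. Mvk, mevalonate kinase, fell most of them in the EV-proficient label. Mvk was at 42.3, 48.4 and 47.8 CPM in the EV-proficient DMSO libraries and at 22.9, 21.4 and 19.8 CPM in the EV-proficient paclitaxel libraries. The EV-deficient libraries held 34.0, 31.9 and 33.2 CPM under DMSO and 25.3, 19.0 and 23.6 CPM under paclitaxel. The untreated EV-proficient libraries were the highest, and the 2 treated groups overlapped. Its log2 fold change was -1.11 ± 0.10 SE, edgeR adjusted p 2.3e-09, in the EV-proficient and -0.54 ± 0.094 SE, edgeR adjusted p 3.1e-05, in the EV-deficient label. Idi1, which isomerises isopentenyl diphosphate, changed by -0.95 ± 0.11 SE and -0.74 ± 0.11 SE, and Pmvk, phosphomevalonate kinase, by -0.88 ± 0.089 SE and -0.59 ± 0.088 SE. Smaller falls in both labels were those of Acat2, the cytosolic thiolase at the head of the pathway (-0.37 ± 0.069 SE and -0.49 ± 0.069 SE), and Mvd, the mevalonate diphosphate decarboxylase (-0.22 ± 0.077 SE and -0.56 ± 0.076 SE). The fall of Mvd in the EV-proficient label was not called without EV-proficient DMSO replicate 2 (-0.17) or with upper-quartile scaling (-0.16).

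Hmgcs1, the synthase that makes HMG-CoA and a classical SREBP target, did not follow them. Hmgcs1 was at 161, 161 and 153 CPM in the EV-proficient DMSO libraries and at 147, 121 and 155 CPM in the EV-proficient paclitaxel libraries. With the EV-deficient label the values were 131, 124 and 126 CPM under DMSO and 179.9, 176 and 161 CPM under paclitaxel. Among the untreated libraries those labelled EV-deficient were all lower, and among the treated ones all higher. Hmgcs1 (ENSMUSG00000093930, chr13:119690379-119708260 of GRCm38, plus strand) rose with paclitaxel in the EV-deficient label (0.44 ± 0.074 SE, edgeR adjusted p 2.4e-05), while in the EV-proficient label its log2 fold change was -0.17 ± 0.074 SE and its groups overlapped. That change had an edgeR adjusted p of 0.056 and passed with median-of-ratios scaling (-0.19), DESeq2 (-0.19), limma-voom (-0.19) and the replicate block (-0.17), and without EV-proficient paclitaxel replicate 1 (-0.25) or 3 (-0.28). Ggps1, which makes geranylgeranyl diphosphate for protein prenylation, rose in the EV-proficient label (0.35 ± 0.078 SE) and was 0.17 ± 0.077 SE in the EV-deficient label, where it passed with 6 of the 8 other settings, for example DESeq2 (0.19). Exons of Ggps1 overlap those of Arid4b on the opposite strand, and Arid4b lay at 36.9 to 42.4 and 51.3 to 57.2 CPM without and with drug in the EV-proficient label and at 45.6 to 47.0 and 56.0 to 57.3 CPM in the EV-deficient label. Fdps, the farnesyl diphosphate synthase, had only 94 to 293 counts in a library and passed in no comparison, except with upper-quartile scaling as higher with paclitaxel in the EV-deficient label (0.46) and in the interaction without EV-proficient paclitaxel replicate 1 (0.73). Its exons are shared with Gm43738 on the same strand, for which every library is listed at 0, so the level of Fdps is uncertain.

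Promoters, each 250 bases before to 50 after an annotated start, were read from RefSeq on GRCm38.p6 and matched by symbol for 27 of the 33 members (35 promoters). They are shown for 3 genes with different responses: Hmgcs1, which rose in 1 label, Cyp51, which went opposite ways, and Fasn, which fell in both. Letters searched on both strands were TCACNCCAC, a form of the sterol regulatory element that SREBPs bind, CCAAT, the box of the NF-Y factor that assists SREBPs, and CACGTG, an E-box. Capitals mark TCACNCCAC and CCAAT on either strand.
Hmgcs1, chr13:119690101-119690400, plus strand: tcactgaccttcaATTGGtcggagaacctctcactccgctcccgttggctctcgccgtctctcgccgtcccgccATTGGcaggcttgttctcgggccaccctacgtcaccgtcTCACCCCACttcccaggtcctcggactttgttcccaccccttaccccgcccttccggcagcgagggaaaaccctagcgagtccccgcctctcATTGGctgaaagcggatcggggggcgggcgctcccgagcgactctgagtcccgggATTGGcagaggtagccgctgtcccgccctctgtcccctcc
Cyp51, chr5:4104648-4104947, minus strand: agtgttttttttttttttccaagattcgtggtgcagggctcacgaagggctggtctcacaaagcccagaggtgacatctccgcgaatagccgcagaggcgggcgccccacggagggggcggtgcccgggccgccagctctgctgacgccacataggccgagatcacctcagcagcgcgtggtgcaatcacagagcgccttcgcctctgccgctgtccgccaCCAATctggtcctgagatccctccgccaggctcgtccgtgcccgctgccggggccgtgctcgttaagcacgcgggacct
Fasn, chr11:120824498-120824797, minus strand: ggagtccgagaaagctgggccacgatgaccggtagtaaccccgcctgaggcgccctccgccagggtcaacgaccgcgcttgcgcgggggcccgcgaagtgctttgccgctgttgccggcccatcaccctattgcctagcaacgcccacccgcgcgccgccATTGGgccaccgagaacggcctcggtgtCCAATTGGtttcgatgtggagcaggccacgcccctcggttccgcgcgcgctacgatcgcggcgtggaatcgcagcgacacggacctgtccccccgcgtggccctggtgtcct

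The sterol regulatory element form occurred in 1 of the 35 member promoters, that of Hmgcs1, where it begins 137 bases before the start, and in 1.24% of all 32851 promoters. CCAAT occurred in 23 of the 35 member promoters (65.7%) and in 37.4% of all promoters; Hmgcs1 has 4, Fasn 3 (of which 2 overlap as CCAATTGG) and Cyp51 1. CACGTG occurred in 7 of the 35 member promoters (20%) and in 7.15% of all promoters. These matches describe the letters in these windows and say nothing of factor binding.

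Among the 11 sterol branch enzymes, 8 fell and 0 rose in the EV-proficient label (median -0.48), where 27.1% and 31.1% of all genes did. In the EV-deficient label 8 of these enzymes fell and 1 rose (median -0.35), where 30.5% and 32.4% of all genes did. The riser was Cyp51, lanosterol 14-alpha-demethylase. Cyp51 was at 351, 370.4 and 341 CPM in the EV-proficient DMSO libraries and at 197, 166 and 208 CPM in the EV-proficient paclitaxel libraries. Untreated EV-deficient libraries were at 235, 222 and 219.5 CPM and treated ones at 316, 270.1 and 284 CPM. Without drug the EV-proficient libraries were all above the EV-deficient ones, and with drug all below them. Cyp51 (ENSMUSG00000001467, chr5:4081145-4104746 of GRCm38, minus strand) changed by -0.90 ± 0.075 SE, edgeR adjusted p 1.6e-09, in the EV-proficient label and by 0.36 ± 0.075 SE, edgeR adjusted p 2.3e-04, in the EV-deficient label. Its exons overlap those of Akap9 on the opposite strand, the library kit marks strand, and whether strand was used in counting is not given in the sources used here. Akap9 moved in parallel, at 122 to 159.7 and 85.2 to 94.7 CPM without and with drug in the EV-proficient label and at 97.1 to 114 and 115 to 132 CPM in the EV-deficient label; its part in the Cyp51 result was not tested.

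Lss, lanosterol synthase, fell in both labels but by different amounts. Lss was at 158, 169 and 163 CPM in the EV-proficient DMSO libraries and at 77.1, 77.3 and 72.9 CPM in the EV-proficient paclitaxel libraries. In the EV-deficient libraries it was at 127, 123 and 119 CPM under DMSO and at 90.2, 91.5 and 104 CPM under paclitaxel. The 4 groups did not overlap, with EV-proficient DMSO highest and EV-proficient paclitaxel lowest. Its log2 fold changes were -1.11 ± 0.065 SE, edgeR adjusted p 7.3e-12, and -0.37 ± 0.064 SE, edgeR adjusted p 3.1e-05. Sqle, squalene epoxidase and an early oxygen-dependent step, fell modestly in both. Sqle was at 182, 169 and 163 CPM in the EV-proficient DMSO libraries and at 133, 123 and 127 CPM in the EV-proficient paclitaxel libraries. The EV-deficient libraries held 169, 159 and 162 CPM under DMSO and 139, 123 and 137 CPM under paclitaxel. Treated libraries lay below the untreated ones in each label, and the labels overlapped within each treatment. Its log2 fold changes were -0.43 ± 0.063 SE, edgeR adjusted p 5.5e-06, and -0.29 ± 0.063 SE, edgeR adjusted p 3.7e-04, and the second was not called with upper-quartile scaling (-0.11). Hsd17b7 (-1.01 ± 0.12 SE and -0.70 ± 0.12 SE) and Nsdhl (-0.48 ± 0.078 SE and -0.28 ± 0.077 SE), which act at the C4 demethylation steps, Ebp, the sterol isomerase (-0.75 ± 0.084 SE and -0.59 ± 0.083 SE), and Fdft1, squalene synthase (-0.43 ± 0.064 SE and -0.35 ± 0.063 SE), also fell in both. The fall of Nsdhl in the EV-deficient label was not called with upper-quartile scaling (-0.092). Exons of Fdft1 overlap those of Ctsb on the opposite strand, which lay at 362 to 378 and 406 to 419.8 CPM without and with drug in the EV-proficient and at 301 to 327 and 478 to 502 CPM in the EV-deficient label.

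The last steps of the branch differed between labels. Dhcr7, 7-dehydrocholesterol reductase, passed only in the EV-deficient label, and its interaction is given with those of the other members. Dhcr7 was at 142, 149 and 138 CPM in the EV-proficient DMSO libraries and at 152, 152 and 148 CPM in the EV-proficient paclitaxel libraries. With the EV-deficient label the values were 155, 159.7 and 147 CPM under DMSO and 107, 106 and 102 CPM under paclitaxel. The EV-deficient paclitaxel libraries lay below all the others. Its log2 fold change was 0.073 ± 0.057 SE in the EV-proficient label, not called (edgeR adjusted p 0.29) except as higher with upper-quartile scaling (0.13), and -0.55 ± 0.057 SE, edgeR adjusted p 2.8e-08, in the EV-deficient label. Sc5d, the sterol C5-desaturase just before it, showed the reverse, with a log2 fold change of -0.53 ± 0.069 SE in the EV-proficient label and -0.057 ± 0.068 SE, not called, in the EV-deficient label. Tm7sf2, a sterol C14-reductase, fell in the EV-deficient label (-0.37 ± 0.091 SE, not called with upper-quartile scaling, -0.19) and was -0.10 ± 0.092 SE in the EV-proficient label; it shares exons with Vps51 on its own strand, at 28.7 to 32.3 and 34.9 to 41.8 CPM and, in the EV-deficient label, 31.0 to 33.8 and 27.2 to 31.4 CPM. Msmo1, the C4-methylsterol oxidase, passed in neither at 0.15 ± 0.083 SE and 0.17 ± 0.083 SE, although upper-quartile scaling called both as higher (0.21 and 0.36) and 5 of the 8 settings called the second. Stard4, which carries cholesterol between membranes, was -0.019 ± 0.068 SE in the EV-proficient label and rose by 0.16 ± 0.067 SE in the EV-deficient label, but 9 of the 12 fits that omitted a library lost this call, at 0.12 to 0.17.

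The regulators moved in both directions. Insig1, an anchor that holds SCAP back when sterol is plentiful and itself an SREBP target, rose in both labels. Insig1 was at 133, 131 and 123 CPM in the EV-proficient DMSO libraries and at 188, 181 and 194 CPM in the EV-proficient paclitaxel libraries. Untreated EV-deficient libraries were at 114, 116 and 112 CPM and treated ones at 215, 216 and 177 CPM. All treated libraries were above all untreated ones. Its log2 fold changes were 0.54 ± 0.070 SE, edgeR adjusted p 9.6e-07, and 0.83 ± 0.070 SE, edgeR adjusted p 1.1e-09. Insig2 was at 29.6, 29.3 and 24.5 CPM in the EV-proficient DMSO libraries and at 50.2, 46.7 and 50.9 CPM in the EV-proficient paclitaxel libraries. In the EV-deficient libraries it was at 28.3, 26.1 and 27.1 CPM under DMSO and at 49.0, 51.9 and 46.2 CPM under paclitaxel. Insig2, the second anchor, thus separated fully by treatment too, and the labels overlapped within each treatment. It rose by 0.82 ± 0.080 SE and 0.85 ± 0.079 SE. Scap, their partner, fell by 0.85 in the EV-proficient and by 0.81 in the EV-deficient label on the log2 scale. So both anchors rose and the escort fell, in either label.

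Srebf1 was at 188, 219 and 223 CPM in the EV-proficient DMSO libraries and at 139, 146 and 142 CPM in the EV-proficient paclitaxel libraries. The EV-deficient libraries held 177, 169.7 and 194 CPM under DMSO and 124, 118 and 126 CPM under paclitaxel. Srebf1, whose products lean toward fatty acid genes, was lower in treated libraries of both labels, with log2 fold changes of -0.56 ± 0.068 SE, edgeR adjusted p 4.0e-07, and -0.55 ± 0.068 SE, edgeR adjusted p 3.3e-07. Its exons overlap those of Rai1 on the opposite strand, which lay at 109.7 to 116 and 109 to 122 CPM without and with drug in the EV-proficient label and at 131 to 146 and 73.4 to 88.9 CPM in the EV-deficient label. Srebf2 was at 335, 369.9 and 369 CPM in the EV-proficient DMSO libraries and at 336, 350.1 and 344 CPM in the EV-proficient paclitaxel libraries. With the EV-deficient label the values were 353, 338 and 356 CPM under DMSO and 260.3, 268 and 276 CPM under paclitaxel. Srebf2, whose product leans toward sterol genes, was lower in only the treated EV-deficient group, with no overlap with the other 3 groups. Its change was -0.060 ± 0.057 SE, not called (edgeR adjusted p 0.38), in the EV-proficient label and -0.38 ± 0.057 SE, edgeR adjusted p 4.5e-06, in the EV-deficient label.

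The 2 members listed by role as LXR targets had low counts, and they do not stand for all LXR targets. Abca1 had 1, 7 and 4 counts in the EV-proficient DMSO libraries and 39, 33 and 16 with paclitaxel. In the EV-deficient libraries it had 3, 5 and 7 counts under DMSO and 79, 66 and 126 under paclitaxel. In CPM these were 0.0244, 0.168 and 0.117 against 0.771, 0.580 and 0.647, and 0.0535, 0.104 and 0.153 against 1.47, 1.43 and 2.07. Every treated library was above every untreated one, and the treated EV-deficient libraries were the highest. Abca1 rose by 2.67 ± 0.52 SE, edgeR adjusted p 1.5e-04, and by 4.0 ± 0.48 SE, edgeR adjusted p 2.6e-07. With untreated counts this low the sizes are imprecise. Abcg1, a sterol exporter outside the member list and also low in counts, rose in the EV-proficient label (3.48 ± 0.61 SE). In the EV-deficient label Abcg1 fell (-1.83 ± 0.49 SE). Mylip encodes a ubiquitin ligase that directs lipoprotein receptors to degradation. Mylip was at 2.02, 1.70 and 2.08 CPM in the EV-proficient DMSO libraries and at 1.70, 3.30 and 2.87 CPM in the EV-proficient paclitaxel libraries. Untreated EV-deficient libraries were at 3.37, 3.23 and 3.07 CPM and treated ones at 2.61, 2.53 and 1.72 CPM. The untreated EV-deficient libraries were all above the untreated EV-proficient ones, and the treated EV-proficient libraries spread over the range of the other groups. Its paclitaxel effects, 0.44 ± 0.24 SE and -0.50 ± 0.23 SE, were not called, except both in the fit without EV-proficient paclitaxel replicate 1 (0.64 and -0.51) and the second with limma-voom (-0.54).

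Comparing the labels within a treatment shows how the EV-deficient line differed from the EV-proficient line, and cannot single out the block of vesicle release. Under DMSO, 3 members were higher and 7 lower in libraries carrying the EV-deficient label, where 23.0% of all genes passed (12.4% higher and 10.6% lower); the median was -0.092 against 0.039 over all genes. For 14 members the labels did not overlap, as for 43.3% of all genes. The higher ones were Mylip (0.74 ± 0.24 SE), Scd1 (0.54 ± 0.062 SE, edgeR adjusted p 1.0e-06) and Ggps1 (0.24 ± 0.078 SE). The lower ones were Cyp51 (-0.65 ± 0.075 SE, edgeR adjusted p 1.0e-06), Mvk (-0.48 ± 0.093 SE), Lss (-0.41 ± 0.064 SE), Hmgcs1 (-0.31 ± 0.074 SE), Pmvk (-0.26 ± 0.087 SE), Srebf1 (-0.22 ± 0.068 SE) and Scd2 (-0.19 ± 0.060 SE). Several of these calls were lost when 1 library was left out. Mylip lost its call whichever of the 6 DMSO libraries was omitted (0.66 to 0.80). Scd2 lost it for each DMSO library except EV-proficient replicate 3 (-0.17 to -0.20), and Pmvk for each except EV-proficient replicate 1 (-0.19 to -0.29). Srebf1 lost it without EV-proficient DMSO replicate 2 or 3 or EV-deficient DMSO replicate 1 or 2 (-0.17 to -0.20). Ggps1 lost it without any 1 of those 4 libraries or of replicates 1 and 3 of both paclitaxel groups (0.20 to 0.26). Leaving out EV-deficient DMSO replicate 1 or 2 or EV-proficient DMSO replicate 2 left 5 members called, and leaving out EV-proficient DMSO replicate 3 left 6, while the DMSO groups alone gave 16; that fit called 5697 of 15580 genes, against 4162 of 18108. Insig1, Nsdhl and Stard4 were called as lower with 5 of the 8 settings (-0.20, -0.21 and -0.20 with DESeq2).

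Under paclitaxel, 6 members were higher and 5 lower in libraries carrying the EV-deficient label, where 37.8% of all genes passed (16.0% higher and 21.8% lower), with a median of 0.028 against -0.0047. The labels did not overlap for 12 members and for 44.1% of all genes. With upper-quartile scaling, which shifted the median of all genes by 0.10, the split was 10 higher and 3 lower, and the share of higher genes among all called genes was 58.2% against 42.4%. That scaling added Acaca (0.28), Elovl6 (0.20), Insig1 (0.21) and Sqle (0.16) as higher. The higher ones were Abca1 (1.31 ± 0.40 SE), Cyp51 (0.61 ± 0.075 SE, edgeR adjusted p 1.8e-06), Sc5d (0.38 ± 0.069 SE), Lss (0.33 ± 0.064 SE), Scd2 (0.33 ± 0.060 SE) and Hmgcs1 (0.29 ± 0.074 SE). The lower ones were Dhcr7 (-0.52 ± 0.058 SE, edgeR adjusted p 4.5e-07), Srebf2 (-0.36 ± 0.057 SE), Mvd (-0.33 ± 0.077 SE), Srebf1 (-0.22 ± 0.068 SE) and Scd1 (-0.21 ± 0.062 SE). The differences of Srebf1 and Scd1 were not called with upper-quartile scaling (-0.12 and -0.11) or with only the paclitaxel groups (-0.19 and -0.18), nor that of Srebf1 without replicate 2 of either paclitaxel group (-0.18 to -0.19). That of Abca1 was not called without EV-proficient paclitaxel replicate 2 (1.22) or EV-deficient paclitaxel replicate 3 (1.12).

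The differences between labels under the 2 treatments, which share no library, had the same sign for 10 of the 33 members (30.3%) and for 32.9% of all genes. Of the 6 members called under both treatments, 1 kept its sign, Srebf1, which was lower under both. Over all genes tested, 2834 were called under both treatments and 112 of them (3.95%) kept their sign. These shares rest on the EV labels as given, whose possible exchange between groups was not tested. Among the members, Cyp51, Lss, Hmgcs1 and Scd2 went from lower to higher and Scd1 from higher to lower. The scatter of label effects shows these 5 in the upper left and lower right corners.

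**Figure D4:**
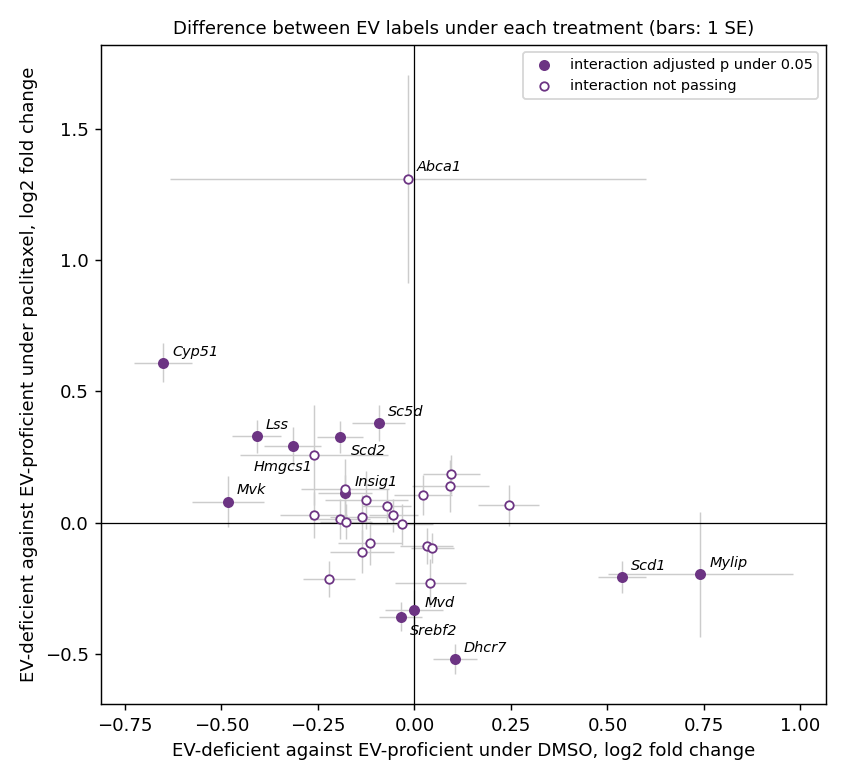
Each point is 1 of the 33 genes, with the log2 fold change of EV-deficient against EV-proficient libraries under DMSO on the horizontal and under paclitaxel on the vertical axis, bars of 1 SE, and filled points where the interaction has an edgeR adjusted p under 0.05. Cyp51 at -0.65 and 0.61 lies far into the upper left corner and Scd1 at 0.54 and -0.21 in the lower right.

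Whether the paclitaxel effect itself differed was tested as the interaction, the effect in the EV-deficient label minus that in the EV-proficient label. It passed for 7 members upward and 5 downward, where 40.7% of all genes passed (16.9% upward and 23.8% downward); the median was 0.088 against -0.040. With upper-quartile scaling, which shifted the median of all genes by 0.12, the split was 12 upward and 3 downward, and the upward share of all called genes was 53.9% against 41.4%. Pmvk, upward, was called with 5 of the 7 settings that give an interaction (0.33 with DESeq2), and upper-quartile scaling added Hsd17b7 (0.43), Nsdhl (0.33), Stard4 (0.30) and Sqle (0.26). Without EV-deficient paclitaxel replicate 2 the count was 18, with Hsd17b7 (0.53), Idi1 (0.40) and Ebp (0.28) among those added. By role, 3 of the 11 sterol branch enzymes were upward (Cyp51, Lss and Sc5d) and 1 downward (Dhcr7), 2 of the 8 early enzymes were upward (Hmgcs1 and Mvk) and 1 downward (Mvd), Insig1 was upward and Srebf2 downward among the 5 regulators, and the desaturases went opposite ways, Scd2 upward and Scd1 downward. The remaining one was Mylip, downward (-0.94 ± 0.34 SE). The interaction of Cyp51 was 1.26 ± 0.11 SE, edgeR adjusted p 4.6e-09, that of Lss 0.74 ± 0.090 SE, edgeR adjusted p 1.1e-06, and that of Scd1 -0.75 ± 0.088 SE, edgeR adjusted p 6.2e-07. Fasn (0.046 ± 0.14 SE), Acaca (0.088 ± 0.11 SE), Insig2 (0.026 ± 0.11 SE), Scap (0.036 ± 0.12 SE) and Srebf1 (0.0042 ± 0.10 SE) did not pass, and neither did Abca1 (1.33 ± 0.76 SE), whose error was the largest of the members.

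A second list of 61 genes of lipid synthesis, acyl chain remodelling, SREBP processing, sterol trafficking, oxysterol formation and prenylation was read from the same fit, and 59 of them were tested. With paclitaxel 16 rose and 25 fell in the EV-proficient label, where 31.1% and 27.1% of all genes did. In the EV-deficient label 23 rose and 23 fell, against 32.4% and 30.5% of all genes. Between labels 6 were higher and 24 lower under DMSO (12.4% and 10.6% of all genes), and 20 higher and 15 lower under paclitaxel (16.0% and 21.8%). The interaction passed for 28 upward and 16 downward (16.9% and 23.8%). Their median log2 fold changes were -0.12 and -0.029 with paclitaxel in the EV-proficient and EV-deficient label, -0.17 and 0.027 between labels under DMSO and paclitaxel, and 0.12 for the interaction, to be read beside the medians of all genes given for each comparison. The highest and lowest of each comparison came from 4 genes. Cyp27a1, the sterol 27-hydroxylase, went from 0.146–0.205 to 1.90–3.06 CPM in the EV-proficient and from 0.161–0.263 to 1.15–3.09 CPM in the EV-deficient label (log2 fold changes 3.80 ± 0.42 SE and 3.14 ± 0.40 SE). Cyp7b1, which hydroxylates oxysterols, lay at 0.0478–0.170, 0.0790–0.316 and 0.0208–0.110 CPM in the other 3 groups and at 0.590–1.25 CPM in treated EV-deficient libraries (3.66 ± 0.67 SE with paclitaxel and 2.39 ± 0.61 SE between labels). Fads3, of the fatty acid desaturase family, went from 119–137 to 21.1–23.2 CPM in the EV-proficient and from 34.6–41.2 to 56.6–78.2 CPM in the EV-deficient label, with an interaction of 3.36 ± 0.14 SE. Abcg1, a sterol exporter, went the other way, from 0.0487–0.167 to 0.647–1.42 and from 0.917–1.40 to 0.0820–0.484 CPM, with an interaction of -5.31 ± 0.78 SE. Fads3 was abundant, while Cyp27a1, Cyp7b1 and Abcg1 had few counts in at least 1 group of each comparison given for them, so the sizes of their folds are imprecise.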

How the data were processed

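Stranded poly(A) libraries of 12 cultures were sequenced with paired reads, per the labels' protocols and the file headers. The values are raw read counts per Ensembl gene, which the authors deposited in 1 table with no normalization. STAR 2.5.0a and the build GRCm38 are named in the submitters' processing notes, whereas the counting program, the annotation release and the use of strand are not given in the sources used here. Columns were matched to samples by their descriptions, and 2 rows added by the authors (gfp and dngfr) stayed out of totals and tests.

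The software was R 4.3.3 and edgeR 4.0.16. Low genes were dropped with filterByExpr at a minimum count of 10, library sizes were scaled by the TMM method (trimmed mean of M values), and all 12 libraries entered 1 quasi-likelihood fit of 4 group means. Benjamini-Hochberg adjustment covered every gene tested in a comparison, and an adjusted p under 0.05 is a call. A standard error is the log2 fold change over the root of its F statistic. Replicates differed beyond sampling noise (chi-square per degree of freedom 4.50 to 32.3 over 12 pairs). Exon lengths, coordinates and overlaps came from GENCODE M21 and promoters from RefSeq, both on GRCm38. Every member is described. Values per library are given for the 2 most raised and the 2 most lowered called members of each comparison and for 8 chosen genes, and Scd2 was added after its values were seen. The alternatives were scaling by median of ratios or upper quartile, no low-count filter or one of 1 CPM in 3 libraries, DESeq2 1.42.0 and limma-voom (limma 3.58.1), replicate number as a block, a fit of just the compared groups, and each library omitted once. The procedure was tested on simulated data. The members and lists were chosen with earlier results of these data known.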

Additional observations from a re-analysis of the deposited data

Results flagged for a closer look

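The response to paclitaxel differed between the EV labels as given for 12 members by the interaction test, which 40.7% of all genes passed. It was more positive in the EV-deficient label for Cyp51 (1.26), Lss (0.74), Hmgcs1 (0.61), Mvk (0.56), Scd2 (0.52), Sc5d (0.47) and Insig1 (0.29), all log2 differences of the paclitaxel effects, and more negative for Srebf2 (-0.32), Mvd (-0.33), Dhcr7 (-0.63), Scd1 (-0.75) and Mylip (-0.94). Some of these calls were lost when 1 library was left out. The Mylip call was lost without EV-proficient DMSO replicate 2, EV-proficient paclitaxel replicate 2 or 3, EV-deficient DMSO replicate 1 or 2 or EV-deficient paclitaxel replicate 3 (-0.66 to -0.95). That of Insig1 was lost without EV-proficient DMSO replicate 1 or 2 or EV-deficient DMSO replicate 1 or 3 (0.25 to 0.28), and that of Mvd without EV-proficient paclitaxel replicate 2, EV-deficient DMSO replicate 1 or EV-deficient paclitaxel replicate 3 (-0.20 to -0.30). Upper-quartile scaling did not call Mylip (-0.81) or Mvd (-0.21) and brought Srebf2, still called, to -0.20, and the fit with no filter did not call Insig1 (0.22).

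The row added by the authors for a dngfr sequence, which no comparison used, held up to 758 counts in a library and was above 3 counts in all 12 libraries. The row added for gfp held 0 counts in every library.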

How the results depend on the processing

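No member called in a comparison changed sign under any of the 8 alternative settings or the 12 fits with 1 library left out. Over the 8 settings, 15 of 668 called values lost their call and 56 uncalled ones gained one; with 1 library left out, 55 of 1020 were lost and 50 gained. Values called in neither fit changed sign 31 and 67 times. The numbers of members called were 25 to 26 (paclitaxel, EV-proficient), 26 to 29 (paclitaxel, EV-deficient), 9 to 13 (labels under paclitaxel) and 11 to 15 (interaction) over the settings, and 24 to 27, 26 to 30, 10 to 14 and 9 to 18 with 1 library left out. Between labels under DMSO the count was 10, against 5 to 14 with 1 library left out and 8 to 16 over the settings. It was 8 (3 higher, 5 lower) with no filter, which lost Scd2 (-0.15) and Srebf1 (-0.18). It was 13 (3 higher, 10 lower) with either other scaling, 1 CPM in 3 libraries or DESeq2, and 16 (3 higher, 13 lower) with only the DMSO groups, a fit that estimated the spread from fewer libraries and called 5697 of 15580 genes against 4162 of 18108. The replicate block gave 26, 27, 10, 11 and 13 members in the order of the 5 comparisons. Same-numbered libraries did not pair: their deviations from the group means correlated from -0.081 to 0.097, and each library correlated best with its own number in 1 of the 4 comparisons. The fit with only the groups compared has no value for the interaction. Depth limits Abca1 and Mylip, whose untreated libraries held at most 7 and 189 counts.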
